A study of Mus musculus with 8 samples.

Results

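GATA2 sites of C3H10T1/2 cells that lay inside protein-coding genes and met no 3T3-L1 peak are described here. They were chosen by position alone: a peak of the C3H10T1/2 list was taken when it overlapped no 3T3-L1 peak by even 1 bp and its centre lay in the body of a protein-coding RefSeq gene. Of the 1557 C3H10T1/2 peaks, 1017 overlapped no 3T3-L1 peak, and 454 of those had their centre in such a gene. A dense block on chromosome 11 inside Sfi1 held 19 of these, which the rule left out. The remaining 435 sites were 27.9% of the C3H10T1/2 list and 42.8% of its unshared peaks, and they covered 81.4 kb of DNA. The peak positions of both lists and the gene bodies thus selected the sites, and neither their absence from 3T3-L1 nor their place inside genes is a result.

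The study mapped GATA2 by ChIP-seq, in which DNA bound by a protein is pulled down with an antibody and sequenced. C3H10T1/2, a mouse embryonic fibroblast line able to enter several mesenchymal fates, and 3T3-L1, a mouse line committed to becoming fat cells, were compared at passages 4-6 with no treatment named. Each line had 2 GATA2 ChIP libraries and 2 input libraries, 8 in all, and each ChIP library was made from pooled immunoprecipitations. The antibody was sc-9008x from Santa Cruz, and input DNA had no antibody. What was analysed is 1 list of peaks per line, with 2445 peaks for 3T3-L1, so that no library has a value of its own and no difference between the lines can be set against the spread between cultures. The lists hold positions without any height or score. The depth behind them is unknown, and a peak of one list may be a site just under the threshold of the other. Every p-value and interval given here rests on numbers of peaks and covers counting error at most. Peaks were counted as independent, although 50 genes held 2 or more sites and 8 groups of sites spanned less than 1 kb.

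GATA2 is a zinc finger transcription factor that binds the DNA letters GATA and some flanking bases. In blood it keeps stem and progenitor cells from maturing, and in fat it holds precursor cells back from becoming adipocytes. GATA factors often act from introns and distal enhancers, so a site inside a gene need not act on that gene.

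The few sites at annotated transcription starts can be shown with their DNA, because RefSeq promoter sequences (GRCm38.p6, which is the mm10 assembly; 250 bases before to 50 after a start) were at hand. Such windows existed for the main host gene of 351 of the 435 sites. Counting windows of any gene, 9 sites overlapped 10 windows. Within the part under the peak, 3 of the 10 windows held a GATA motif, searched on both strands as the letters AGATAA and also AGATAG, and likewise as TGATAA and also TGATAG. Over their full length 5 of the 10 did, 1 of them the window of the long non-coding RNA gene Gm11342. Of the 21045 windows of protein-coding genes with annotated starts, 25.8% held a match in 300 bases. The 3 stretches below are the peak's part before the start, with the match in capitals, read 5′ to 3′ on the strand of the named gene.

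Tmcc3 (chromosome 10, plus strand, peak at 94574979 to 94575199, shown from 94575007): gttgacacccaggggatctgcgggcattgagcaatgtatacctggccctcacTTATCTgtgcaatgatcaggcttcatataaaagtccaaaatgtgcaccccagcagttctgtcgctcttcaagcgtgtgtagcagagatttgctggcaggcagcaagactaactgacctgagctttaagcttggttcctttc
Neu2 (chromosome 1, plus strand, peak at 87594247 to 87594399, shown from 87594300): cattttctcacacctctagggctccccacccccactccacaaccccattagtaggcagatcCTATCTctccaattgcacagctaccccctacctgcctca
Nucb1 (chromosome 7, minus strand, peak at 45510397 to 45510524 inside Tulp2): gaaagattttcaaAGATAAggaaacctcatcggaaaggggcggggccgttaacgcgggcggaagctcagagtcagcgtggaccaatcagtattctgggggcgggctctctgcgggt

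For contrast, the sites whose centres lay closest to a start held no match in the part under the peak. They are shown as the sites best placed at a start. Ints2 encodes a subunit of the Integrator complex, which processes small nuclear RNAs, and its site was centred 2 bp before an annotated start. The Stxbp4 site was centred 5 bp after a start with its centre 33 bp inside the gene, and the peak also reached the promoter window of Cox11, an assembly factor of cytochrome c oxidase that is read the other way.

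Ints2 (chromosome 11, minus strand, peak at 86257518 to 86257673): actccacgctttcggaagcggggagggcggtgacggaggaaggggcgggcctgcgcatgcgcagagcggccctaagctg
Stxbp4 (chromosome 11, minus strand, peak at 90638041 to 90638164): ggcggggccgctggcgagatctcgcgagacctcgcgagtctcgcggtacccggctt

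A match is a description of the letters and not a binding site, and the other sites lie outside these windows, so their DNA was not read. The windows of genes that hold a site in their body carried the GATA letters in 23.8% of 428 windows, beside the 25.8% of all windows. AP-1 letters, TGAGTCA and its reverse complement, stood in 4.67% and 4.69%.

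Where the sites lay within genes was examined next, against shared C3H10T1/2 peaks inside genes (227, the block on chromosome 11 left out) and 3T3-L1-only peaks inside genes (549, without runs of at least 8 peaks spaced up to 20 kb apart). Most of the 435 sites lay deep inside their host genes. The centre was a median of 35.7 kb from the nearer end of the gene (quartiles 13.0 and 78.9 kb), and 87 sites lay over 100 kb from both ends. Depth moves with host length, which had a median of 171 kb over the sites, and random placement inside the hosts was not compared. Within 1 kb of a gene end lay 18 of 435 sites (4.14%, exact 95% Clopper-Pearson interval 2.47 to 6.46), 16 of 227 shared sites (7.05%, 4.08 to 11.2) and 10 of 549 3T3-L1-only sites (1.82%, 0.877 to 3.32). Neither difference passed Fisher's exact test, two-sided and with Benjamini-Hochberg adjustment for the 9 tests made (-2.91 points, adjusted p = 0.243, and 2.32 points, adjusted p = 0.0767). The second passed when only peaks of at least the median width of each list were used (5.36% against 1.08%, Fisher's exact test, adjusted p = 0.0308), and was 0.963 points with the 3T3-L1 dense runs kept (adjusted Fisher p = 0.463).

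**Figure D1:**
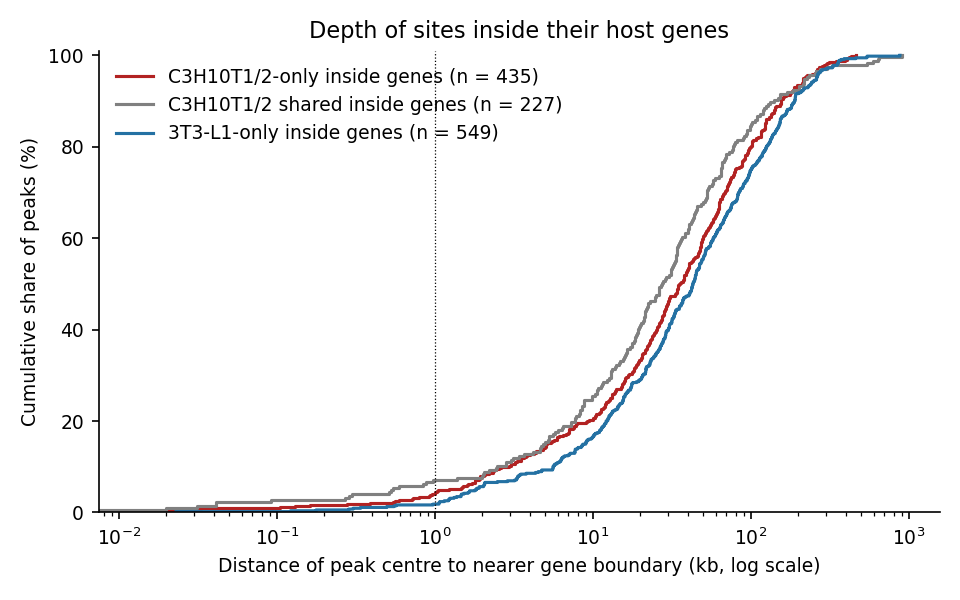
Cumulative share of peaks (y axis, %) by the distance of the peak centre to the nearer boundary of its host gene (x axis, kb, log scale; dotted line at 1 kb) for C3H10T1/2-only, shared and 3T3-L1-only peaks inside genes. The medians are 35.7, 27.5 and 43.0 kb, and 4.14%, 7.05% and 1.82% of the peaks lie within 1 kb.

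Measured from annotated starts, which 351 sites allow, the sites lay a median of 57.4 kb away, 52 (14.8%) lay within 10 kb and 185 (52.7%) lay over 50 kb away. Shared sites lay nearer, with a median of 33.4 kb over 167 sites and 24.0% within 10 kb. Within 1 kb of a start were 3.13% of the sites and 9.58% of shared sites. This comparison, chosen after seeing the data, passed its test (-6.45 points, Fisher's exact test, adjusted p = 0.0144), whereas 3T3-L1-only sites stood at 2.38% (adjusted Fisher p = 0.740). Gene ends of both kinds gave no call between unshared and shared sites, whereas starts did on the smaller set of sites with annotated starts. The gene-end test was not rerun on that set, so the calls cannot be compared directly. In the adjustment the start test took the place of the planned gene-end test, so the extra look is not counted. Over all sites, hosts of shared sites were also shorter (median 123 kb against 171 kb), and the part of host length was not tested.

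The 11 sites within 1 kb of a start of their host lay in Ints2, Stxbp4, Itsn1, Aptx, Ablim1, Tmcc3, Neu2, Smad5, Lpxn, Rptor and Npas4. Itsn1, an endocytic scaffold gene, had its site 35 bp before a start. In Aptx, whose product repairs broken DNA ends, it was 41 bp after a start, with 6536 kb to the closest peak of 3T3-L1. In Smad5, which encodes a signal transducer of the BMP receptors, it lay 296 bp after a start, and in Rptor, a subunit of the growth-controlling kinase complex mTORC1, 726 bp after one. Npas4, an activity-induced transcription factor gene, had its site 797 bp after a start. Sites within 300 bp of a gene end also lay in Prss22 (105 bp), Angpt1, the gene of a ligand that steadies blood vessels (130 bp), Slc30a4, a zinc transporter gene (161 bp), and Myct1 (278 bp). The next nearest lay in the overlap of Veph1 and the pentraxin gene Ptx3 (389 bp) and in Hsd11b1, whose product activates glucocorticoids inside cells (543 bp). The Slc30a4 and Myct1 sites were at the 3′ end of the gene.

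Along the gene from 5′ to 3′, 194 of the 351 sites (55.3%, 49.9 to 60.6) lay nearer to the 5′ than to the 3′ end. For shared sites it was 52.7% and for 3T3-L1-only sites 47.3% (differences of 2.58 and 8.0 points, adjusted Fisher p = 0.717 and 0.0767). With wider peaks alone the difference from shared sites was -3.64 points (adjusted Fisher p = 0.682), and with dense runs kept that from 3T3-L1-only sites was 9.08 points and passed (adjusted Fisher p = 0.0181). These tests were also chosen after seeing the data. The leading, middle and last part of the gene, each of equal length, held 135, 108 and 108 sites.

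Host genes were long. The 435 sites lay in 392 genes, or 1.81% of the 21631 protein-coding genes, and the rule itself favours long genes, since a longer body catches more peaks. A protocadherin gamma cluster on chromosome 18 supplied 21 of the 392 through 1 site (37806004 to 37806258) that lies in 21 overlapping gene models, which leaves 371 other hosts. A further 8 sites lay in 2 genes each and 426 in 1. The median host was 149 kb long against 17.3 kb for all protein-coding genes. Of genes of at least 100 kb 10.9% held a site, and of shorter genes 0.667% did. Per length of gene the sites were also denser in genes over 100 kb, with 1.85 sites per 10 Mb in genes up to 10 kb, 2.62 in those of 10 to 30 kb, 3.11 in those of 30 to 100 kb, 5.92 in those of 100 to 300 kb and 4.17 in longer ones.

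**Figure D2:**
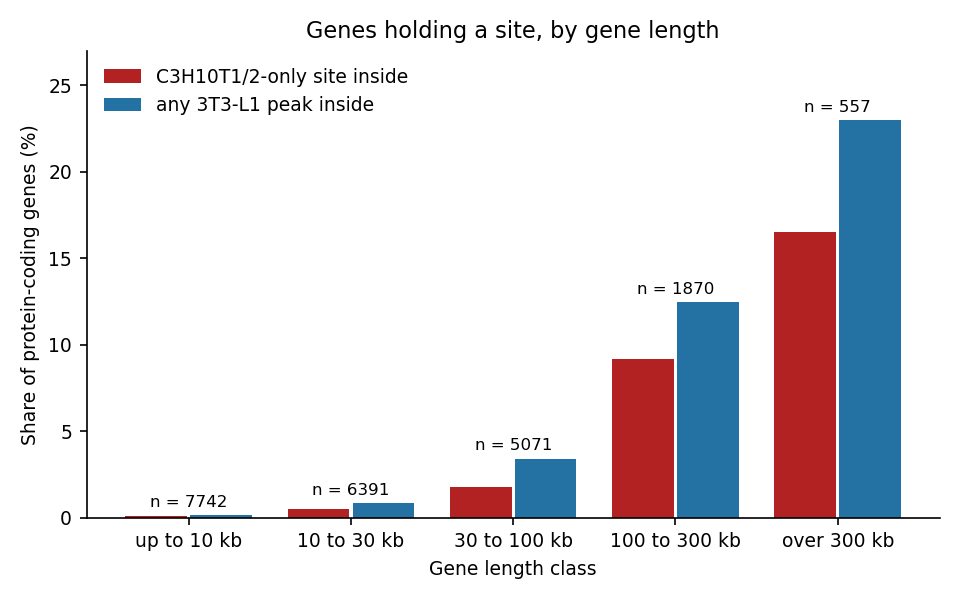
Share of protein-coding genes (y axis, %) in 5 classes of gene length (x axis) that hold a C3H10T1/2-only site (red) or any 3T3-L1 peak outside dense runs (blue), with the number of genes in each class above the bars. The red share goes from 0.0904% of genes up to 10 kb to 16.5% of genes over 300 kb, and the blue share from 0.142% to 23%.

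Compared with shared sites the unshared ones lay in long genes more often. A host of at least 100 kb was found for 312 of 435 sites (71.7%, 67.2 to 75.9) and 125 of 227 shared sites (55.1%, 48.3 to 61.7), a difference of 16.7 points (Fisher's exact test, two-sided, adjusted p = 0.000199). The difference held in every alternative run for it, between 14.2 and 19.7 points (adjusted Fisher p from 0.000325 to 0.00723). None of these alternatives left out shared peaks that may lie in the dense 3T3-L1 runs. The part of that choice in the difference was not tested. No such call was made against 3T3-L1-only sites, 399 of 549 of which lay in such genes (72.7%, difference -0.953 points, adjusted Fisher p = 0.774). That value turned to 14.1 points (adjusted Fisher p = 1.3e-05) with the dense runs of 3T3-L1 kept.

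Hosts of a C3H10T1/2-only site often held a 3T3-L1 peak elsewhere in their body. This was the case for 88 of the 392 hosts (22.4%), whereas 2.76% of all protein-coding genes held a 3T3-L1 peak outside dense runs. Seen from 3T3-L1, the 88 were 14.7% of its 598 genes. Gene length moves with both shares. Among genes of at least 100 kb, 80 of 264 hosts (30.3%) held a 3T3-L1 peak against 14.9% of all such genes, and among shorter genes it was 8 of 128 (6.25%) against 1.23%. In genes over 300 kb the shares were 42.4% of hosts and 23% of all. A shared site lay in 44 hosts and a 3T3-L1-only site in 62, with 18 having both, so that 304 hosts had neither.

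Some genes held several sites. There were 2 or more in 50 genes and 3 or more in 18. Gmds, whose product makes the sugar donor for fucosylation, held 5 over 89.8 kb, at 69.2, 71.1, 71.5, 125 and 159 kb from its 5′ end, and no 3T3-L1 peak. The site at 32269266 to 32269810 on chromosome 13 was 545 bp wide, the second widest of all. Galk2, an N-acetylgalactosamine kinase gene (chromosome 2, 125859109 to 125984298), held 4 sites within 25.4 kb, the widest at 125929893 to 125930337 (445 bp), and no 3T3-L1 peak either. Vps53, a subunit gene of the GARP complex that tethers vesicles at the Golgi, held 3 over 91.8 kb. Its neighbours in this ranking were 1110051M20Rik, the thyroglobulin gene Tg, Filip1l, Runx1, Ablim1, Cmss1 and Arhgef28, with 3 sites each. Cmss1 and Filip1l overlap, and the same 3 sites serve for both.

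In 11 of the 18 genes with 3 or more sites no 3T3-L1 peak lay, and the other 7 also held sites of the other kinds. Runx1 encodes a transcription factor that works with GATA2 in blood stem cells. It held a site shared by the lines at 92710209 to 92710447 on chromosome 16, 116 kb from its 5′ end. The 3 C3H10T1/2-only sites followed downstream at 146, 172 and 180 kb, the middle one 387 bp wide (92653903 to 92654289). In Rarb, the retinoic acid receptor beta gene, a shared site at 201 kb and a 3T3-L1-only site at 241 kb stood on either side of a C3H10T1/2-only site at 221 kb, and 2 more C3H10T1/2-only sites lay at 528 kb, 0.229 kb apart. Cdk14 held 3 C3H10T1/2-only sites, 2 shared and 3 of 3T3-L1 alone. In Celf2, an RNA-binding protein gene, the sites at 289, 304 and 393 kb lay around a shared one at 324 kb. Lrmda held 3 sites beside 7 of 3T3-L1 alone and 1 shared.

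**Figure D3:**
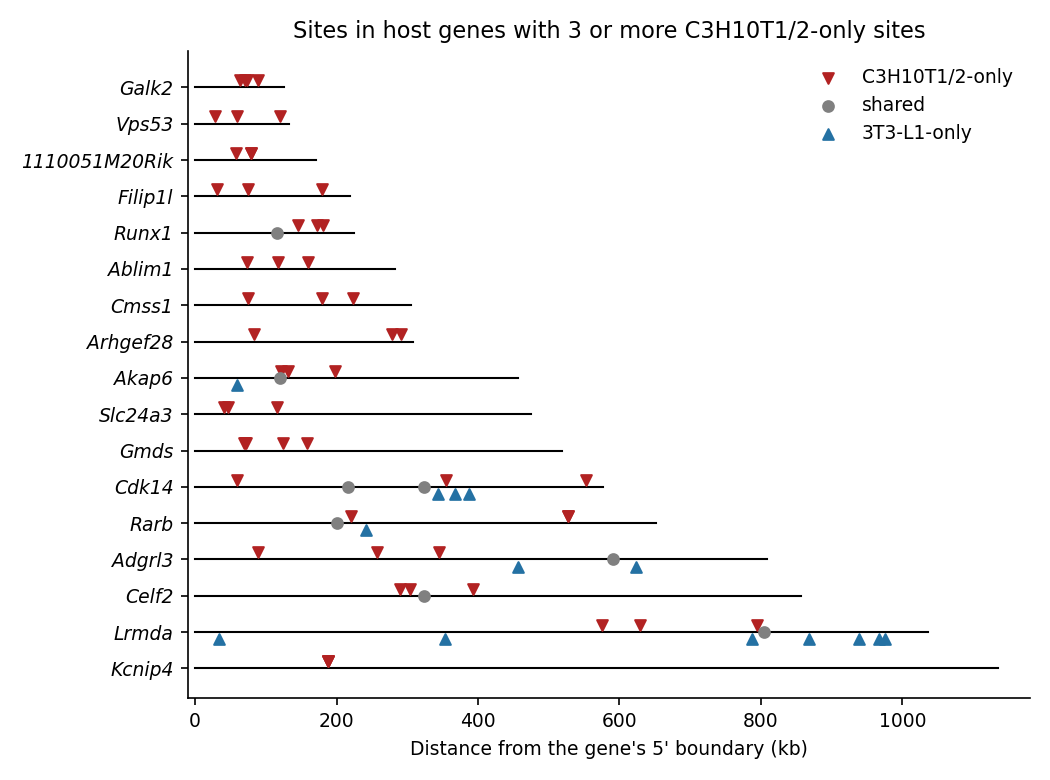
Genes with 3 or more C3H10T1/2-only sites and a known strand, drawn as lines from their 5′ boundary (x axis, kb), with C3H10T1/2-only sites (red), shared C3H10T1/2 sites (grey) and 3T3-L1-only sites (blue). Gmds holds 5 red sites and Galk2 holds 4 with no other kind, and Lrmda holds 3 red sites beside 7 blue ones. Cmss1 and Filip1l overlap and show the same 3 sites.

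Per length the densest host with at least 2 sites was Slc30a4, with 2 sites 0.396 kb apart at its 3′ end, or 9.33 per 100 kb. Galk2 followed with 3.20. Il17rd, an inhibitor of FGF signalling, had 2.93 and Fbln5, an elastic fibre protein gene, 2.76. Vps53, the ferritin receptor gene Scara5, 1110051M20Rik, Tg, the retinal transporter gene Abca4 and the laminin gene Lama4 had 2.25 to 1.38. Both Fbln5 sites lay far from any 3T3-L1 peak, at 6859 and 6872 kb. Lama4 was the only gene of these 10 with 3T3-L1 peaks, 2 of them, at sites shared by the lines.

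Close groups of sites were few. With gaps of at most 10 kb, 35 sites formed 16 groups, and 8 groups spanned less than 1 kb. The tightest triple was in Kcnip4, a potassium channel partner gene (chromosome 5, 49336912 to 49337673, 0.762 kb), and the other triples lay in Gmds (2.57 kb) and Galk2 (10.2 kb). Whether neighbouring peaks are pieces of 1 wider zone of enrichment was not tested. Another C3H10T1/2 peak of any kind lay within 50 kb of 108 of the 435 sites (24.8%, 20.8 to 29.2). Unshared C3H10T1/2 peaks outside genes had such a neighbour more often, in 192 of 563 cases (34.1%, 30.2 to 38.2), a difference of -9.28 points (Fisher's exact test, two-sided, adjusted p = 0.00771). The alternatives gave -7.16 to -10 points (adjusted Fisher p from 0.0033 to 0.0392). The rule had left out 19 sites of the dense chromosome 11 block, whereas no other dense group of C3H10T1/2 peaks was left out, inside or outside genes. The comparison was not rerun with that block kept, and the part of this choice in the difference was not tested. Against shared sites inside genes (48 of 227, 21.1%) the difference was 3.68 points (adjusted Fisher p = 0.430).

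Peak width was the one further value each site carried. The 435 sites were 95 to 619 bp wide with a median of 174 bp (quartiles 142 and 215.5), and 25 reached 300 bp. Unshared C3H10T1/2 peaks outside genes had a median of 175 bp. At least 200 bp were reached by 144 of the 435 sites (33.1%, 28.7 to 37.7) and by 211 of the 563 outside genes (37.5%, 33.5 to 41.6), which differed by -4.37 points (Fisher's exact test, two-sided, adjusted p = 0.243). Shared sites inside genes had a median of 204 bp, a description only, since a wide peak overlaps another more easily. The 3T3-L1-only sites inside genes had a median of 132 bp, in a list with another lower limit of width.

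**Figure D4:**
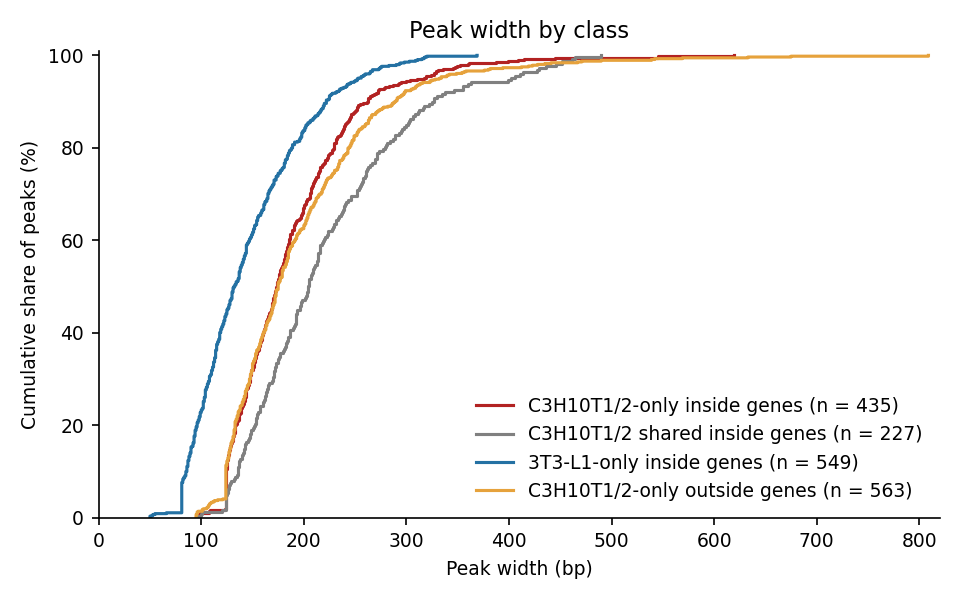
Cumulative share of peaks (y axis, %) by peak width (x axis, bp) in 4 classes: C3H10T1/2-only inside genes, shared inside genes, 3T3-L1-only inside genes and C3H10T1/2-only outside genes. The medians are 174, 204, 132 and 175 bp, so the curves of unshared C3H10T1/2 peaks inside and outside genes run close together.

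The widest site, 619 bp, lay in Calcrl, which encodes a receptor of the vessel peptide adrenomedullin (chromosome 2, 84365310 to 84365928, 35.0 kb inside the gene). After the sites in Gmds and Galk2 came those in Zfhx3 (415 bp), in Mecom, a transcription factor gene of blood stem cells (409 bp, chromosome 3, 30106487 to 30106895), and in the overlap of Aopep and the Fanconi anaemia gene Fancc (399 bp). Runx1 (387 bp), Hmga2 (361 bp), Psd3 (360 bp) and Zfand3 (352 bp) completed the 10 widest. Hmga2 encodes a chromatin protein of embryonic and fat-forming mesenchymal cells. Its site at 120428641 to 120429001 on chromosome 10 was 1413 kb from any 3T3-L1 peak and from any other C3H10T1/2 peak. The Mecom site had a 3T3-L1 peak at 20.5 kb and another C3H10T1/2 peak at 113 kb.

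The distance to 3T3-L1 binding varied widely. To the closest 3T3-L1 peak the median was 309 kb (quartiles 91.8 and 884 kb), 117 sites (26.9%) had one within 100 kb, 25 within 10 kb and 8 within 1 kb, and 86 (19.8%) had none within 1 Mb. The sites just inside the rule lay in Sema3a, Dner, Trps1, Slc7a1 and Sec16a, with gaps of 8, 57, 63, 115 and 226 bp to a 3T3-L1 peak. Just outside it were peaks in Pdlim2, Phlpp1, Ahnak2, Lgr4 and Kctd16 that overlapped one by 21 to 59 bp. For these the unshared call rests on the called ends of the peaks. At the other end stood the sites in Pdgfd, a platelet-derived growth factor gene (7662 kb), in Fbln5, in Aptx and in Pcdh9 (5955 kb).

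Genes of pathways tied to the fates of these cells were looked up in 21 lists, which were drawn up with earlier results of these data known and are described without a test. Of their 748 genes, 41 (5.48%) held a site, against the 1.81% of all genes given above. Length moves with this too: 31 of the 200 list genes of at least 100 kb were hosts (15.5%, background 10.9%), and 10 of the 548 shorter ones (1.82%, background 0.667%). With peaks of at least the median width alone, 17 list genes were hosts (2.27%, against 1.02% of all genes), and the BMP and TGF-beta list had 1 host, the Wnt list 0 and the nuclear receptor list 0.

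BMP and TGF-beta signalling, in which ligands bind receptor kinases that pass the signal to Smad proteins, had 5 hosts among 45 genes. No gene of the list held a 3T3-L1-only site and 1 held a shared one, where 2.76% of all genes held a 3T3-L1 peak of either kind. The ligand gene Bmp6 had a site 5.09 kb inside its 5′ end (chromosome 13, 38350748 to 38350871). Smad5 transmits BMP signals, and its site stood near its start at 56703863 to 56704065 on the same chromosome. Smad3 transmits TGF-beta signals and had a site 36.9 kb from its start (chromosome 9, 63720992 to 63721120). The inhibitory gene Smad7 (chromosome 18, 75377612 to 75377770) and Smurf2, which marks receptors and Smads for destruction (chromosome 11, 106846246 to 106846372), completed the set. The nearest 3T3-L1 peak was 940, 1684, 1109, 123 and 186 kb from these sites, in the order named. The nearest other C3H10T1/2 peak was 940, 1684, 599, 116 and 87.2 kb away, centre to centre. Of the list's 9 long genes 3 were hosts, and of its 36 shorter genes 2.

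Wnt signalling had 4 hosts among 42 genes, beside 1.81% of all genes. These were 4 of its 12 genes of at least 100 kb, beside 10.9% of all such genes, and its 30 shorter genes had 0 hosts. A 3T3-L1-only site lay in 2 genes (Dkk2 and Sfrp1) and a shared one in 2, where 2.76% of all genes held a 3T3-L1 peak. The hosts were the receptor gene Ror1, the agonist gene Rspo2 and the nuclear effector genes Tcf7l1 and Tcf7l2, whose products bind DNA together with beta-catenin. Tcf7l1 held 2 sites (chromosome 6, 72712032 to 72712212 and 72740671 to 72740806), and Tcf7l2 had 1 at 27.3 kb from its start (chromosome 19, 55769029 to 55769177). In the Notch and Hedgehog list 2 of 28 genes were hosts, the Notch coactivator gene Maml3 and the Hedgehog co-receptor gene Cdon. Of that list's 6 long genes 1 was a host, and of its 22 shorter genes 1.

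GATA factors and cofactors had 2 hosts of 18, Runx1 and Trps1, a GATA-type repressor gene. These were 2 of the list's 5 genes of at least 100 kb, and its 13 shorter genes had 0 hosts. The Trps1 site (chromosome 15, 50665746 to 50665972) was 63 bp from a 3T3-L1 peak. Nuclear receptors had 3 hosts of 40, Rarb, Rxra and the mineralocorticoid receptor gene Nr3c2, and 6 genes with a 3T3-L1-only site, Rarb among them. Of the 15 long genes of this list 2 were hosts (10.9% of all genes of at least 100 kb), and of its 25 shorter genes 1 (0.667% of all). Rxra, whose product pairs with many nuclear receptors, had its site at 27744955 to 27745116 on chromosome 2. It was the single host among the 30 adipogenesis genes (3.33%, beside 1.81% of all genes). The adipogenesis list's 9 long genes had 0 hosts and its 21 shorter genes 1. A 3T3-L1-only site lay in 4 of its genes (Ebf2, Pparg, Ppargc1a and Retsat) and a shared one in 1. Of all genes 2.76% held a 3T3-L1 peak. Runx2, the bone master regulator, was the single host among 20 osteogenesis genes and also held a 3T3-L1-only site. Of the osteogenesis list's 3 long genes 1 was a host, and of its 17 shorter genes 0. Chondrogenesis had 3 hosts of 16: the cartilage factor gene Sox6 with 2 sites 9.57 kb apart (chromosome 7, 115615742 to 115615925 and 115625313 to 115625498), the collagen gene Col11a1, and Trps1. All 3 were among the list's 4 genes of at least 100 kb, and its 12 shorter genes had 0 hosts. Over all genes of these lengths 10.9% and 0.667% were hosts. With a shared peak defined by centres within 1 kb, the list had 2 hosts.

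In the matrix list the hosts were Col4a2, a basement membrane collagen gene, and the gelatinase gene Mmp2 (2 of 40), and in the actin and YAP list Tpm1 and Vcl, which encode tropomyosin and the adhesion protein vinculin (2 of 40). The mesenchymal precursor list had Cdh11 (1 of 29), and the list of growth factors and receptors had Pdgfd (1 of 37). Of genes of at least 100 kb on these lists, in the order named, 1 of 10, 1 of 10, 1 of 4 and 1 of 13 were hosts. Over all such genes it was 10.9%. Of their shorter genes 1 of 30, 1 of 30, 0 of 25 and 0 of 24 were hosts, beside 0.667% of all shorter genes. No host was found among 16 myogenesis genes, 36 ribosomal protein genes, 26 inflammatory mediators or 22 immediate early and AP-1 genes, lists made up mostly of short genes. The synapse list, with 22 long genes among 30, had Dscam alone.

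By symbol, 3 of 22 phosphodiesterase genes, whose products break down cyclic nucleotides, were hosts (Pde4d, Pde6a and Pde8b). Of 40 cadherins, numbered protocadherins and catenins 4 were (Cdh1, Cdh11, Cdh18 and Pcdh9). The 18 protocadherin gamma genes around the single chromosome 18 site were not on that list. Among the 4 hosts, the E-cadherin gene Cdh1 had its site 1.33 kb from a 3T3-L1 peak. Of 122 forkhead, Sox, Tbx and homeobox genes 5 were (Foxj3, Foxk1, Foxn3, Meis2 and Sox6), with no Hox gene among them. Of genes of at least 100 kb, 2 of 12 phosphodiesterases, 3 of 22 on the cadherin list and 3 of 10 on the last list were hosts. Over all such genes it was 10.9%. Of shorter genes 1 of 10, 1 of 18 and 2 of 112 were hosts, beside 0.667% of all shorter genes.

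The sites were spread over chromosomes 1 to 19 and X at uneven density. Per 10 Mb of gene body there were 8.02 on chromosome 13, 6.75 on 15 and 6.16 on 14, and 1.81 on 17, 1.8 on 9 and 1.09 on X. On X lay 5 sites, beside 3 shared C3H10T1/2 peaks and 28 3T3-L1-only peaks inside genes (0.657 and 6.13 per 10 Mb). On chromosome 13 shared and 3T3-L1-only peaks inside genes stood at 2.92 and 6.81 per 10 Mb, and on chromosome 9 at 2.16 and 2.88. The number of copies of each chromosome in these lines was not measured here, and its part in these densities was not tested.

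**Figure D5:**
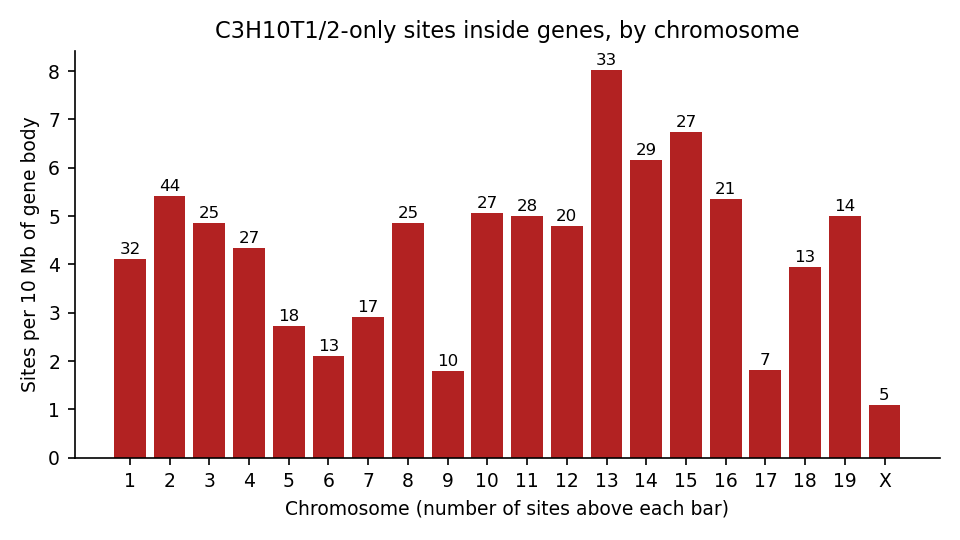
C3H10T1/2-only sites inside genes per 10 Mb of protein-coding gene body (y axis) on each chromosome (x axis), with the number of sites above each bar. Chromosome 13 stands highest with 33 sites (8.02 per 10 Mb) and X lowest with 5 (1.09 per 10 Mb).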

How the data were processed

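Each cell line has 1 deposited peak list with chromosome, start and end positions in bp (another kind of value than counts or signal) and no score. The submitters' processing notes name MACS2, bedtools, SAMtools, Bowtie2 and CASAVA 1.8, and mm10 as the build. Their settings, the use of input and the combination of the libraries are not given in the sources used here. Read depth is unknown.

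Positions were made 1-based. Genes were the 21631 protein-coding genes of the RefSeq table (GRCm38.p6) on chromosomes 1 to 19 and X. Strand and starts came from the promoter table, which held 17274 of them. Exon and UTR positions were not used here. Where genes overlap, the longest gave length and position.

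Overlap, host and test code (Python 3.11.15, pandas 2.3.3, scipy 1.17.1) was tested on simulated data. Shares were compared with two-sided Fisher's exact tests, adjusted by Benjamini-Hochberg over 9 tests, 7 planned and 2 added, and called at an adjusted p under 0.05. The planned motif search in whole peaks needed a genome sequence and was not run. Runs of at least 8 peaks with gaps up to 20 kb (454 peaks) were left out of 3T3-L1-only sites.

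Members, lists and tests were chosen with earlier results of these data known. Named were the 10 widest sites, the 10 nearest a gene end, the 5 with the smallest and the largest gap to a 3T3-L1 peak, the 5 shared peaks with the least overlap, the 10 genes with most sites, the 10 densest hosts, list genes, and sites at promoter windows; some items that this rule names are not reported here. The other genes with 3 or more sites and the genes with a site near a start were named after their values were seen.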

Additional observations from a re-analysis of the deposited data

How the results depend on the processing

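Alternatives were another definition of a shared peak, wider peaks alone, whole peaks inside genes and other windows. With a shared peak defined by 50% of both peaks, by centres within 1 kb, or with whole peaks inside genes, the set held 474, 428 and 431 sites, and 454 with the block on chromosome 11 kept (added after seeing the data). With peaks of at least the median width it held 224, and 17 list genes were hosts in place of 41. In that setting the share near gene ends passed its test against 3T3-L1-only sites (4.28 points, adjusted Fisher p = 0.0308). There the comparison with shared sites on the 5′ side of the gene changed sign (-3.64 points, adjusted Fisher p = 0.682). With dense runs of 3T3-L1 kept, the share in long genes against 3T3-L1-only sites changed from -0.953 to 14.1 points (adjusted Fisher p = 1.3e-05), since those runs lie in shorter genes, and the 5′ side comparison passed (9.08 points, adjusted Fisher p = 0.0181). With distance to starts in place of gene ends, on the smaller set of sites with annotated starts, the comparison with shared sites passed (-6.45 points, adjusted Fisher p = 0.0144). The other 36 tested differences of main results under an alternative kept their direction and their side of the threshold, and the other 7 counts stayed within 1.5 times the reported count. No paired analysis was possible because each line has 1 peak list and no value per library, so leaving out a library was not possible either. The motif alternatives were not run. Unknown depth limits every statement on absence from the other list.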

Other observations

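Non-coding genes lay under some of the sites. The centre of 33 of the 435 sites was inside a gene that does not code for protein, which for 31 of them was a long non-coding RNA gene. Both Ankrd44 sites lay in 4930444A19Rik, both Abca4 sites in Gm40138 and a pair of Akap6 sites in Gm51971. The Ints2 site at the gene's start also lay in Brip1os.

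Widths piled up at 1 value in each list. Of the 435 sites, 38 (8.74%) were exactly 124 bp wide and 8 were narrower, and of all 1557 C3H10T1/2 peaks 98 (6.29%) had that width. In 3T3-L1 the commonest width was 81 bp, with 106 peaks.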
